A study of Homo sapiens with 8 samples.

Results

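The adenylyl cyclases are the enzymes that make cyclic AMP (cAMP) from ATP. Of the 10 human genes of the family, ADCY1 to ADCY10, 8 were found by their symbols among the 15811 genes of the deposited table; ADCY4 and ADCY10 had no row in it and were not analysed here. ADCY2 had been picked for its fall in EXT1-/- cells, so its difference between the groups is given as a description with no test. The other 7 genes came in by name.

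The libraries were made from H9, an established human embryonic stem cell line. The 4 EXT1-/- libraries came from H9 cells edited at EXT1 with CRISPR/Cas9, a line that the series' own description says makes no heparan sulfate; the 4 WT libraries came from unedited H9 cells. Both groups were seeded with the ROCK inhibitor Y-27632, kept in E8 medium, and then given 6 µM CHIR-99021, a GSK3 inhibitor, in RPMI-1640 for 28 h to induce mesendoderm. Every value is therefore from induced cells, and 1 EXT1-/- line stands for the genotype. Nothing in the labels tells whether replicates are separate cultures; the spread behind each p-value may thus be technical.

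Membrane adenylyl cyclases are switched on by the G protein subunit Gs alpha, which is released when hormones, neurotransmitters or adenosine bind their receptors, and the cAMP they make acts through protein kinase A, EPAC proteins and cyclic nucleotide-gated channels. The isoforms differ in what else controls them. ADCY1, ADCY3 and ADCY8 are stimulated by calcium and calmodulin, ADCY2, ADCY4 and ADCY7 are stimulated by G beta-gamma when Gs alpha is present, ADCY5 and ADCY6 are inhibited by Gi alpha and by calcium, ADCY9 responds poorly to the activator forskolin, and ADCY10 is a soluble enzyme that senses bicarbonate.

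The normalised read counts of a library, which are read counts scaled by the authors, summed to between 37737058 and 40017763, so that 1 CPM, the usual depth-scaled count unit, equals about 38.9 of them. EXT1 was lower in the EXT1-/- libraries, with 890 to 980 normalised read counts against 1464 to 1776 in the WT libraries. Mitochondrially encoded genes took 9.18% to 10.7% of the counts in EXT1-/- replicates 1 and 4 and WT replicate 1 (the high set) and 5.30% to 5.43% in the other 5 libraries (the low set), a split that no label names; differences within each set are given beside those of all 8 libraries. The mesendoderm markers TBXT (listed as T), MIXL1, EOMES and GSC together summed to 9472 to 15005 counts in EXT1-/- libraries and 27021 to 30702 in WT libraries; the first 3 passed as lower, and GSC, near 1 CPM in both groups, did not pass.

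ADCY2 (ENSG00000078295; chromosome 5, 7396208 to 7830081, plus strand, GRCh38, GENCODE 29) had the largest difference of the 8 genes. Its normalised read count was 251, 240, 250 and 282 in EXT1-/- replicates 1 to 4, against 2363, 2191, 2235 and 2258 in WT replicates 1 to 4. The groups lay far apart, and within each of them the libraries differed by little. The mean was 256 ± 18.2 in EXT1-/- cells and 2262 ± 73.0 in WT cells (SD, n = 4 each), so the WT mean was 8.84 times the EXT1-/- mean. On the log2(count + 1) scale the difference was -3.14 ± 0.07 (SE), against -3.18 in the low set alone and -3.15 in the high set alone. The transcript was thus still measured in every EXT1-/- library, at the level of several CPM.

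The sequence just upstream of the ADCY2 start site is shown because this gene carries the main difference. It covers the 250 bases before the RefSeq start (GRCh38.p14, chr5:7395888-7396137, plus strand), which hold no exon annotated in GENCODE 29. Capitals mark GC boxes, the letters GGGCGG on either strand.
ADCY2: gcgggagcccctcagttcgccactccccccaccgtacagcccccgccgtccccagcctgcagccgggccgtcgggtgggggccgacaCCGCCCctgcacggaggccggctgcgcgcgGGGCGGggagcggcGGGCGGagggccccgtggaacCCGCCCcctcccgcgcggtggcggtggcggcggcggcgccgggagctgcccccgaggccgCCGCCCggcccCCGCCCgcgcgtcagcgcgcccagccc
The window held 6 GC boxes and 40 CpG sites, and 85.2% of its bases were G or C, where the median of all 35116 RefSeq windows of this length was 58.0%. At least 1 GC box was present in 42.6% of those windows. A share of G and C at or above that of ADCY2 was found in 0.362% of all windows. ADCY6, ADCY8 and ADCY9 had no window. Among the cyclase genes that had one, this composition was not particular to ADCY2. An ADCY3 window had the same 85.2%, with 43 CpG sites and 9 GC boxes. The other windows of ADCY1, ADCY3, ADCY5 and ADCY7 had 50.8% to 78.0%. The letters TGACG, the half-site of the cAMP response element, occurred once in the ADCY2 window and in 21.2% of all windows. The full element TGACGTCA, the ETS core CCGGAA, the TCF/LEF core CTTTGA and the letters TATAAA did not occur in it on either strand; they are in 1.65%, 14.5%, 11.2% and 10.7% of all windows. These matches describe the letters of the window and are not evidence of binding.

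Across the whole table, 32% of genes passed an adjusted p of 0.05 in either direction (limma, Benjamini-Hochberg over all genes), 15.2% as higher and 16.8% as lower in EXT1-/- cells. Against this background, of the 7 cyclase genes other than ADCY2, 4 passed as lower and 1 as higher, leaving 2 that did not pass. Their median log2 difference was -0.29 (-0.28 within the low set), beside 0.01 for all genes. ADCY8 could enter the table only through its WT libraries, so this count and median describe the measured genes and support no direction for the family. The 5 genes that passed also passed within the low set, where 45% of all genes did, and each had the same sign in both sets. The groups of these 5 genes did not overlap, which held for 33.5% of all genes.

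**Figure D1:**
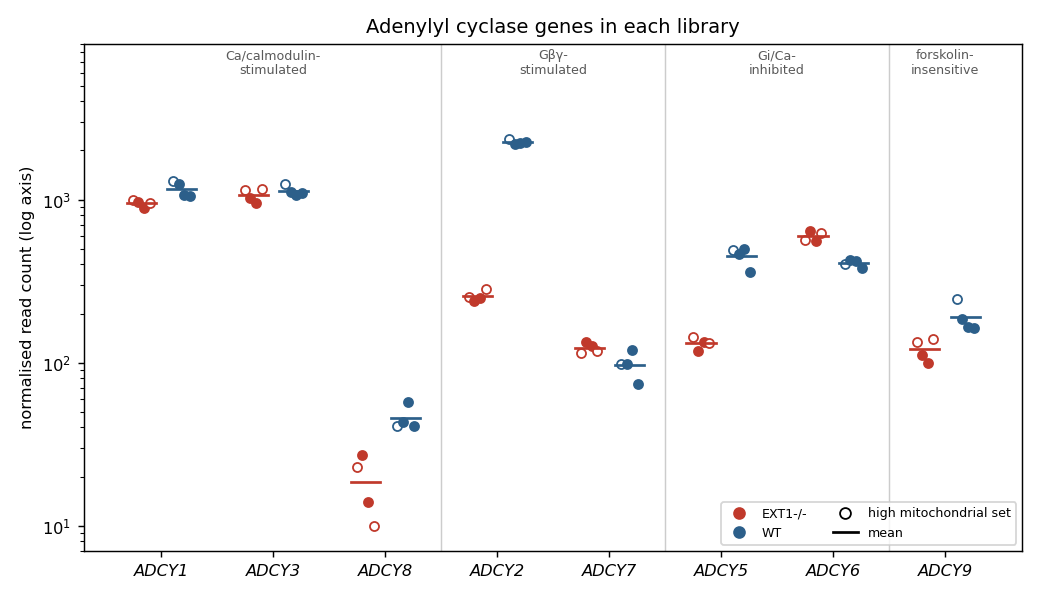
Normalised read count (log axis) of the 8 measured adenylyl cyclase genes in each library, grouped by how the enzymes are regulated; EXT1-/- libraries stand left of WT libraries, open points are the high mitochondrial set and bars are group means. ADCY2 lies between 240 and 282 in EXT1-/- libraries and between 2191 and 2363 in WT libraries, while the groups of ADCY3 and ADCY7 overlap.

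Among the calcium- and calmodulin-stimulated enzymes, ADCY8 (ENSG00000155897; chromosome 8, minus strand), a cyclase known mainly from brain, was the lowest of the measured genes. It had 23, 27, 14 and 10 normalised read counts in EXT1-/- replicates 1 to 4, against 41, 43, 57 and 41 in WT replicates 1 to 4. No EXT1-/- library reached the lowest WT library, but all values were close to or below 1 CPM and those of the EXT1-/- libraries ranged widely. The log2 difference was -1.34 ± 0.32 (SE), with an adjusted p of 0.0120 (limma), and was -1.21 in the low set and -1.37 in the high set. All EXT1-/- libraries were below 1 CPM, so ADCY8 could enter the table only through the WT libraries and had to differ. Its p-values are thus no support for a fall.

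ADCY1 (ENSG00000164742; chromosome 7, 45574140 to 45723116, plus strand), the neuronal calmodulin-stimulated cyclase, was modestly lower. It had 994, 968, 882 and 957 normalised read counts in EXT1-/- replicates 1 to 4, against 1300, 1246, 1073 and 1057 in WT replicates 1 to 4. The groups did not overlap, yet the gap between the highest EXT1-/- and the lowest WT library was smaller than the range of either group. The log2 difference was -0.29 ± 0.08 (SE; adjusted p 0.0256, limma), with -0.28 in the low set and -0.41 in the high set. The call was lost without EXT1-/- replicate 3 (adjusted p 0.0644) and without WT replicate 2 (adjusted p 0.0801).

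ADCY3 (ENSG00000138031; chromosome 2, 24819169 to 24919839, minus strand), which signals in olfactory neurons and in primary cilia, did not pass. It had 1150, 1024, 947 and 1162 normalised read counts in EXT1-/- replicates 1 to 4, against 1250, 1113, 1068 and 1101 in WT replicates 1 to 4. The groups overlapped, and in both of them the libraries of the high set were among the highest. The log2 difference was -0.08 ± 0.08 (SE; adjusted p 0.486, limma); with the library set as a term it was -0.14 and passed (adjusted p 0.0207). Of the merged exon bases of ADCY3, 24.6% are shared with exons of CENPO on the opposite strand, which averaged 2992 counts in EXT1-/- and 1969 in WT libraries; the kit was stranded, but no source used here says whether the counting used the strand.

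ADCY7 (ENSG00000121281; chromosome 16, 50246137 to 50318135, plus strand), the other measured enzyme of the G beta-gamma-stimulated class to which ADCY2 belongs and one best known from blood cells, did not pass either. It had 114, 134, 126 and 117 normalised read counts in EXT1-/- replicates 1 to 4, against 98, 98, 119 and 74 in WT replicates 1 to 4. The groups overlapped through WT replicate 3. The log2 difference was 0.35 ± 0.15 (SE; adjusted p 0.106, limma), 0.44 in the low set and 0.23 in the high set, of opposite sign to that of ADCY2. Exons of BRD7 on the opposite strand, a gene with far higher counts, cover 41.6% of the ADCY7 exon bases, so without strand in the counting its reads could not be told apart from those of ADCY7.

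ADCY5 and ADCY6, the closely related pair inhibited by Gi alpha and calcium, went in opposite directions. ADCY5 (ENSG00000173175; chromosome 3, 123282296 to 123449758, minus strand), the main cyclase of the striatum and prominent in heart, had 143, 118, 134 and 131 normalised read counts in EXT1-/- replicates 1 to 4, against 493, 463, 496 and 362 in WT replicates 1 to 4. Every EXT1-/- library was well below the lowest WT library. The mean was 132 ± 10.3 in EXT1-/- cells and 454 ± 62.8 in WT cells (SD, n = 4 each), and the log2 difference was -1.77 ± 0.12 (SE; adjusted p 1.03e-05, limma), with -1.79 in the low set and -1.84 in the high set.

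ADCY6 (ENSG00000174233; chromosome 12, 48766194 to 48789037, minus strand), a cyclase of heart and kidney, was the only member that passed as higher in EXT1-/- cells. It had 568, 642, 555 and 626 normalised read counts in EXT1-/- replicates 1 to 4, against 401, 426, 419 and 382 in WT replicates 1 to 4. The groups were separate by more than 100 counts. The mean was 598 ± 42.7 in EXT1-/- cells and 407 ± 19.7 in WT cells (SD, n = 4 each), and the log2 difference was 0.55 ± 0.07 (SE; adjusted p 0.000543, limma), with 0.55 in the low set and 0.57 in the high set.

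ADCY9 (ENSG00000162104; chromosome 16, 3953387 to 4116185, minus strand), a widely expressed cyclase, had 134, 111, 99 and 139 normalised read counts in EXT1-/- replicates 1 to 4, against 247, 186, 165 and 164 in WT replicates 1 to 4. In both groups the libraries of the high set were the highest, and the groups did not overlap. The log2 difference was -0.65 ± 0.17 (SE; adjusted p 0.0167, limma), with -0.70 in the low set and -0.85 in the high set.

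In the authors' deposited table, the same 5 genes passed an FDR of 0.05, which 26.2% of all genes passed there. The authors' FDR was 4.35e-20 for ADCY5, 0.000209 for ADCY6, 0.0164 for ADCY9, 0.0166 for ADCY8 and 0.0423 for ADCY1. For ADCY8, which could enter the table only through the WT libraries, it is no support for a fall. In the authors' deposited table the FDR was 0.277 for ADCY7 and 0.671 for ADCY3.

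**Figure D2:**
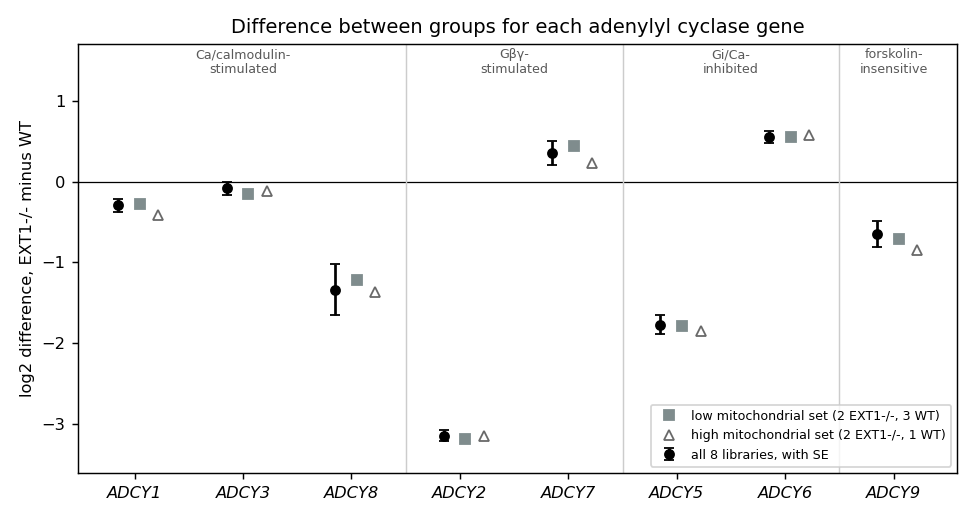
Log2 difference (EXT1-/- minus WT) of each adenylyl cyclase gene over all 8 libraries with its standard error, and within the low and the high mitochondrial set without one. The values of the sets lie near those of all libraries, with ADCY2 at -3.14, ADCY5 at -1.77 and ADCY6 at 0.55 over all 8.

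To compare levels between genes, counts were divided by the length of the merged GENCODE 29 exons. In EXT1-/- cells the order of these levels was ADCY3, ADCY6, ADCY1, ADCY5, ADCY2, ADCY7, ADCY9 and ADCY8. ADCY3 stood at 177 ± 17.1 normalised read counts per kb, ADCY6 at 71.1 ± 5.08 and ADCY1 at 68.8 ± 3.48 (SD, n = 4). The ranges of ADCY6 and ADCY1 overlapped, as did those of each next pair among ADCY5, ADCY2, ADCY7 and ADCY9, which had 11.7 to 14.8 per kb.

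In WT cells the order of levels per kb was ADCY3, ADCY2, ADCY1, ADCY5, ADCY6, ADCY9, ADCY7 and ADCY8. ADCY3 stood at 187 ± 13.3 normalised read counts per kb, ADCY2 at 129 ± 4.16 and ADCY1 at 84.6 ± 8.85 (SD, n = 4). Only ADCY5 with ADCY6, and ADCY7 with ADCY8, overlapped among neighbours of that order. By merged exon length, ADCY2 was thus second of the 8 measured genes in WT cells and rank 5 in EXT1-/- cells.

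The summed level of the 8 genes was 390, 373, 342 and 395 normalised read counts per kb in EXT1-/- replicates 1 to 4, against 581, 538, 526 and 505 in WT replicates 1 to 4. The groups of this sum did not overlap, and its EXT1-/- mean was 69.8% of its WT mean. The sum includes ADCY2, which was picked for its fall, so this separation is no separate result. Without ADCY2 the sum was 360 ± 23.4 per kb in EXT1-/- cells and 408 ± 29.3 in WT cells (SD, n = 4 each). The EXT1-/- mean was then 88.2% of the WT mean, and the groups overlapped. ADCY2 made up 3.89% ± 0.26 of the summed level in EXT1-/- cells and 24.0% ± 1.09 in WT cells, ADCY6 19.0% ± 1.29 in EXT1-/- and 9.02% ± 0.58 in WT cells, and ADCY3 47.1% ± 1.82 in EXT1-/- and 34.8% ± 1.18 in WT cells (SD, n = 4 each). The level of ADCY3 itself was not higher in EXT1-/- cells, at 177 per kb against 187 in WT cells, so its larger share reflects the smaller sum. In these bulk libraries, fewer cells that express a gene and less of its RNA per cell cannot be told apart.

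**Figure D3:**
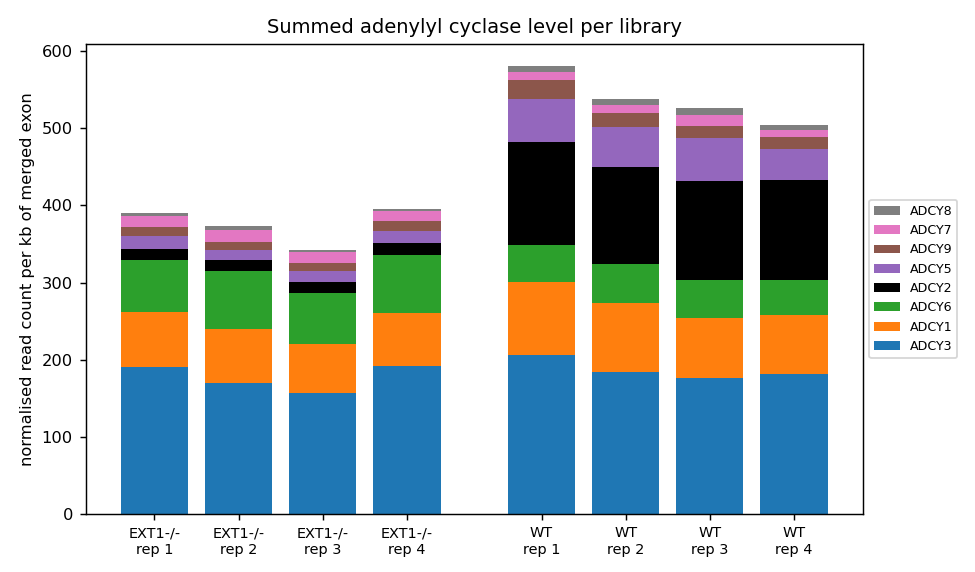
Level of each adenylyl cyclase gene per library in normalised read counts per kb of merged exon, stacked so that a bar's height is the sum over the 8 measured genes; EXT1-/- libraries stand on the left. The black segment, ADCY2, makes up 3.89% of the sum on average in EXT1-/- libraries and 24.0% in WT libraries.

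Markers of cell state also differed between the groups, and within most lists they did not go one way; those named here were picked after their values were seen. The pluripotency markers (5 of 5 in the table) summed to 55307 to 61982 counts in EXT1-/- libraries and 98330 to 101379 in WT libraries, with 4 lower and SOX2 higher, at 11246 ± 2355 in EXT1-/- and 5922 ± 1688 in WT cells (SD, n = 4 each). Neuroectoderm markers (3 of 7, with PAX6, SOX1, SIX3 and LHX2 absent from the table) summed to 2627 to 4571 in EXT1-/- and 248 to 276 in WT libraries; ZIC1 made up most of the EXT1-/- sum, POU3F2 was also higher, and OTX2 was lower, at 33.0 ± 4.69 in EXT1-/- and 114 ± 21.2 in WT cells (SD, n = 4 each). Both neural crest markers in the table (PAX3 and TFAP2A; SOX10 and FOXD3 had no row) were higher and summed to 872 to 1347 in EXT1-/- and 84 to 90 in WT libraries. Amnion and trophectoderm markers (3 of 5, without ISL1 and GATA3) summed to 3435 to 5981 in EXT1-/- and 3267 to 3608 in WT libraries, a sum carried by CDX2, which did not pass. HAND1 was higher, with 40 to 104 counts in EXT1-/- and 0 to 1 in WT libraries, and GABRP was lower, with 4 to 11 in EXT1-/- and 53 to 62 in WT libraries. OTX2, POU3F2, TFAP2A, HAND1 and GABRP were below 1 CPM in every library of the lower group. They could enter the table only through the other group, so their differences had to appear. The part of the marker shifts in the values of the cyclase genes was not tested.

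The genes that lie beside ADCY2 on chromosome 5 had no difference of its size. Of the 5 genes of the table within 1 Mb of either end, the log2 differences ran from -0.27 to 0.25, with a median of 0.10. On the upstream side, NSUN2, an RNA methyltransferase gene, was higher by 0.25 ± 0.05 (SE), with an adjusted p of 0.00434 (limma). SRD5A1, a steroid 5-alpha-reductase gene, had -0.27 (adjusted p 0.0541, limma). It passed as lower within the low set (-0.29, adjusted p 0.00153, limma) and with the library set as a term (adjusted p 0.0064, limma), and had -0.08 in the high set. PAPD7, a poly(A) polymerase gene, had 0.10 (adjusted p 0.352, limma). MTRR, needed to keep methionine synthase active, starts 21.1 kb downstream of ADCY2 and had 0.12 (adjusted p 0.208, limma), and FASTKD3, a mitochondrial RNA-binding protein gene, had 0.00 (adjusted p 0.994, limma).

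**Figure D4:**
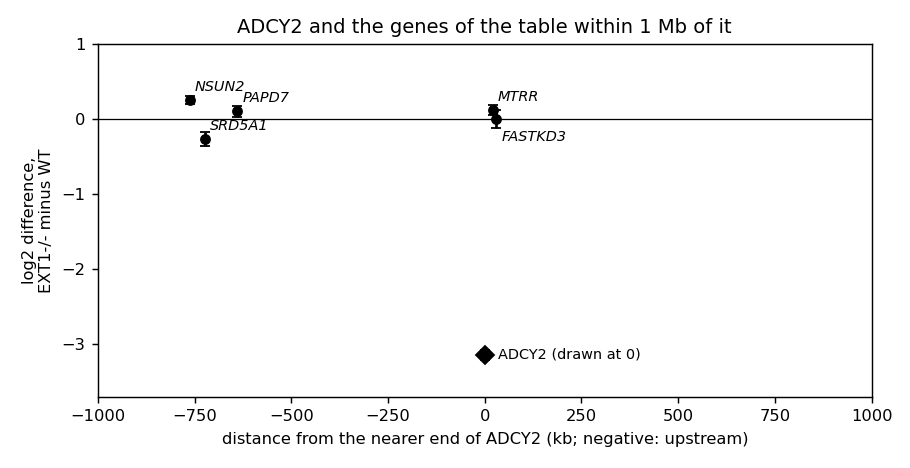
Log2 difference (EXT1-/- minus WT, with SE over 8 libraries) of ADCY2 and of the 5 genes of the table within 1 Mb, against distance from the nearer end of ADCY2 in kb. ADCY2 is at -3.14 and the neighbours lie between -0.27 and 0.25.

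The genes whose profiles over the 8 libraries were nearest to that of ADCY2 were ETV4, SPRY4, APLNR, PCDH10 and FAT3. The 13842 genes compared had at least 1 CPM on average. Symbols that begin like clone, LOC or LINC names were left out, which also drops named genes whose symbol starts with AP and a digit. Likeness was the root mean square difference of log2(count + 1) values after each gene's mean was taken off. It was 0.14 for ETV4, an ETS transcription factor gene, and 0.14 for SPRY4, a feedback inhibitor of receptor tyrosine kinase signalling. It was 0.16 for APLNR, the apelin receptor, and 0.19 for the protocadherin gene PCDH10 and the giant cadherin gene FAT3. ETV4 had 377 ± 74.5 normalised read counts in EXT1-/- cells and 3109 ± 146 in WT cells, and SPRY4 had 259 ± 62.1 in EXT1-/- cells and 2176 ± 93.1 in WT cells (SD, n = 4 each). The measure selects genes with the same difference between groups, so that difference is no separate result.

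Upstream of the enzymes, 14 of 37 listed Gs-coupled receptor genes were in the table; 7 passed as lower in EXT1-/- cells and 2 as higher, with a median log2 difference of -0.53 (-0.57 within the low set). Over all genes, 16.8% passed as lower and 15.2% as higher, the median being 0.01, and the other lists of the pathway are to be read against the same shares. The highest of the lower ones was HTR7, a serotonin receptor, with 125, 203, 216 and 201 normalised read counts in EXT1-/- replicates 1 to 4, against 1020, 1171, 1158 and 1148 in WT replicates 1 to 4. All EXT1-/- libraries were far below all WT libraries, and the log2 difference was -2.62 ± 0.16 (SE; adjusted p 7.63e-06, limma). ADORA2B, an adenosine receptor, averaged 51.5 ± 7.59 in EXT1-/- cells and 166 ± 10.2 in WT cells (SD, n = 4 each). CALCR, the calcitonin receptor, averaged 11.0 ± 1.41 in EXT1-/- cells and 74.5 ± 15.1 in WT cells, and DRD1, a dopamine receptor, 7.0 ± 3.16 in EXT1-/- cells and 86.5 ± 19.8 in WT cells.

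The receptors that were higher, named after their values were seen, were PTH1R, the parathyroid hormone receptor, at 125 ± 40.6 in EXT1-/- cells and 26.8 ± 5.06 in WT cells, and MC1R, the melanocortin receptor, at 136 ± 13.8 in EXT1-/- cells and 87.5 ± 17.9 in WT cells (SD, n = 4 each). GPR3, which activates Gs without a known added ligand, was lower at 145 ± 28.2 in EXT1-/- cells and 285 ± 23.3 in WT cells and was likewise named after its values were seen. Of the 14 receptors, 5 had a mean below 1 CPM in at least 1 group, and CALCR, DRD1 and PTH1R could enter the table only through the group in which they were higher, so the count and median support no direction for the list.

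The G protein subunits carry the receptor signal to the cyclases. Of 7 alpha subunits of the Gs and Gi classes, 1 passed as lower and 1 as higher. GNAL, the Gs-like alpha subunit of olfactory and striatal neurons, had 1308, 1370, 1384 and 1342 normalised read counts in EXT1-/- replicates 1 to 4, against 2248, 2319, 2286 and 2433 in WT replicates 1 to 4, a log2 difference of -0.78 ± 0.05 (SE; adjusted p 8.54e-06, limma). GNAS, the general Gs alpha gene, averaged 23604 ± 2981 in EXT1-/- cells and 22075 ± 3171 in WT cells (SD, n = 4 each; adjusted p 0.563, limma). GNAI2, a Gi alpha subunit, had a log2 difference of 0.35 (adjusted p 0.158), which passed with the library set as a term (0.22, adjusted p 0.000633). GNAZ, another subunit of the Gi class, was higher by 0.60 (adjusted p 0.0158), a call lost without WT replicate 2 (adjusted p 0.0505).

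Of 13 measured G beta and gamma subunits, which act on ADCY2 and ADCY7, 3 passed as lower and 2 as higher; 8 did not, and the median log2 difference was -0.04. GNG4 was lower by 0.85 on the log2 scale, with 432 ± 49.1 counts in EXT1-/- cells and 779 ± 46.0 in WT cells. GNB4 had 2517 ± 321 counts in EXT1-/- cells and 4029 ± 624 in WT cells, and GNG2 had 327 ± 24.0 in EXT1-/- cells and 430 ± 30.6 in WT cells (SD, n = 4 each). GNG12 was higher by 0.26, and GNG7, named after its values were seen, by 0.42. The adjusted p of these 5 lay between 0.000157 and 0.0290 (limma).

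Phosphodiesterases, which break cAMP down, were lower in 3 of 11 measured cases and higher in 2, with a median log2 difference of -0.03. PDE3A had 177, 147, 122 and 158 normalised read counts in EXT1-/- replicates 1 to 4, against 44, 31, 31 and 39 in WT replicates 1 to 4, a log2 difference of 2.03 ± 0.17 (SE; adjusted p 3.57e-05, limma). PDE2A was lower by 0.89 on the log2 scale. PDE7A was higher by 0.17, a call lost without WT replicate 2 (adjusted p 0.0617, limma). PDE4C had a difference of -1.18 at low counts, 17.5 ± 7.33 in EXT1-/- cells and 38.8 ± 2.87 in WT cells (SD, n = 4 each), and could enter the table only through the WT libraries. PDE10A had -0.50 and an adjusted p of 0.0331 (limma), a call lost within the low set (0.0504), with the replicate block (0.0586) and without EXT1-/- replicate 1, 3 or 4 or WT replicate 2, 3 or 4 (0.0726 to 0.0927). PDE4D did not pass (0.31, adjusted p 0.328, limma), but did within the low set (0.33, adjusted p 0.0408) and without EXT1-/- replicate 1 (0.52, adjusted p 0.0467).

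Of 10 protein kinase A subunits and inhibitors, 4 passed as lower, 2 passed as higher and the other 4 missed the threshold; the median log2 difference was -0.09. The regulatory subunit gene PRKAR2A averaged 1464 ± 39.0 in EXT1-/- cells and 2023 ± 65.3 in WT cells, and its relative PRKAR2B 1497 ± 177 in EXT1-/- cells and 1058 ± 135 in WT cells (SD, n = 4 each), so these passed in opposite directions (adjusted p 0.000160 and 0.0103, limma). PRKAR1A was lower by 0.21 and the catalytic subunit gene PRKX by 0.36 on the log2 scale, and the inhibitor genes PKIA (-0.24) and PKIB (0.46), named after their values were seen, passed with adjusted p of 0.0459 and 0.0493 (limma). PRKACA, the main catalytic subunit, had a log2 difference of 0.09 (adjusted p 0.755, limma).

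Anchoring proteins, which hold protein kinase A at defined sites, numbered 15 in the table, with 3 higher, 2 lower and a median log2 difference of 0.13. AKAP7 fell to 316 ± 42.5 in EXT1-/- cells, against 770 ± 39.2 in WT cells. MAP2, a neuronal microtubule protein that binds the kinase, had 1298 ± 147 in EXT1-/- cells and 418 ± 58.9 in WT cells (SD, n = 4 each). AKAP12 was higher by 0.59 and AKAP13 by 0.38. AKAP6, named after its values were seen, was lower by 0.68 on the log2 scale, with 34 to 60 counts in EXT1-/- libraries. The AKAP6 call was lost within the low set (-0.35, adjusted p 0.108, limma).

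Among the other effectors, RAPGEF3, which encodes EPAC1, had 10, 17, 10 and 17 normalised read counts in EXT1-/- replicates 1 to 4, against 50, 66, 53 and 54 in WT replicates 1 to 4, so that the WT mean was 4.13 times the EXT1-/- mean (adjusted p 0.000369, limma). All EXT1-/- libraries were below 1 CPM, so RAPGEF3 could enter the table only through the WT libraries and had to differ. RAPGEF4, which encodes EPAC2, averaged 135 ± 15.9 in EXT1-/- cells and 115 ± 22.2 in WT cells (SD, n = 4 each; adjusted p 0.274, limma). None of the 8 genes of the CREB family and its coactivators passed limma's adjusted p; 1 had an unadjusted p below 0.05, 1 passed with limma-voom and 3 passed as higher within the low set. CREB1 averaged 3609 ± 142 in EXT1-/- cells and 3522 ± 180 in WT cells (SD, n = 4 each).

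Of 13 listed CREB target genes, 7 were in the table, of which 3 passed as lower and 1 as higher. FOS had 15, 16, 22 and 24 normalised read counts in EXT1-/- replicates 1 to 4, against 108, 141, 137 and 132 in WT replicates 1 to 4. VGF, a neuropeptide precursor, was lower by 1.96 on the log2 scale, while PPARGC1A, a coactivator of mitochondrial genes, was higher by 1.92. FOS, VGF and PPARGC1A were below 1 CPM in every library of the lower group and could enter the table only through the other one, so these 3 calls had to differ. NR4A1, a nuclear receptor, was lower by 0.35, a call lost without WT replicate 2 (adjusted p 0.0511, limma), with a difference of -0.19 in the high set. FOS and other genes of this list are also targets of ERK signalling, so the list is not specific to cAMP. Over all the lists of the pathway, 26 of 95 measured genes were lower and 14 higher in EXT1-/- cells. The median log2 difference was 0.00. The 95 include the guanylyl cyclases, which make cyclic GMP. Together 40 genes passed, a share to be read against the 32% of all genes that passed. Among the 40, CALCR, DRD1, PTH1R, PDE4C, RAPGEF3, FOS, VGF, PPARGC1A, NPR1 and GUCY2C could enter the table only through 1 group. The total thus supports neither an excess of calls nor a direction for the pathway.

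**Figure D5:**
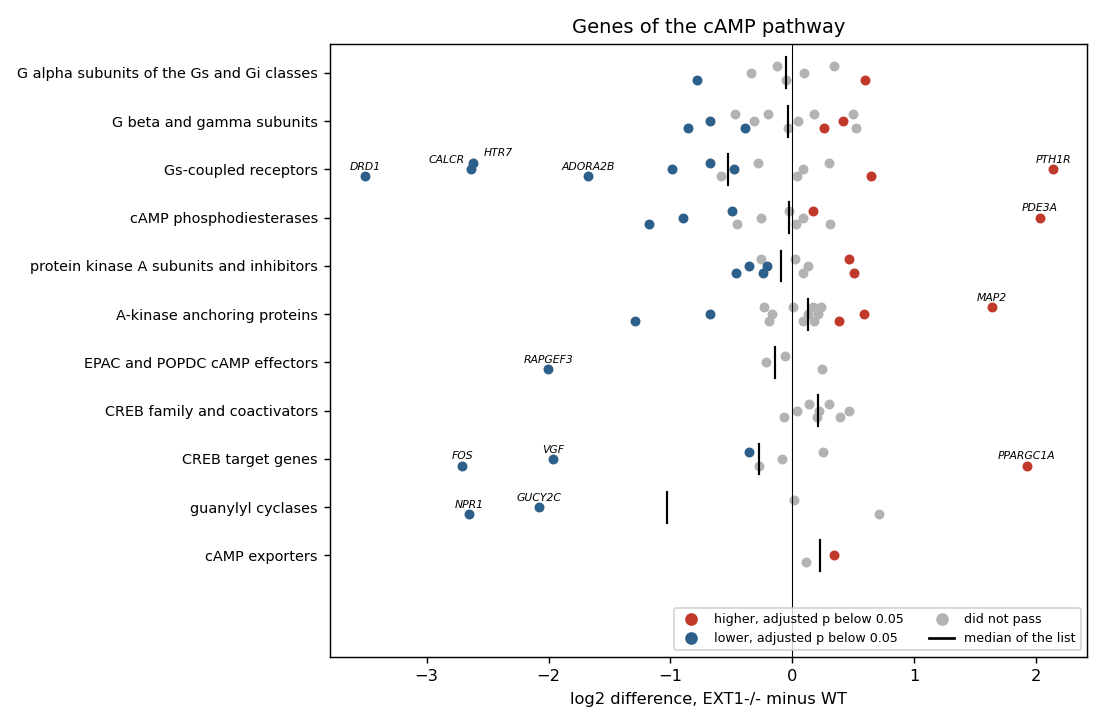
Log2 difference (EXT1-/- minus WT, 8 libraries) of each measured gene of the cAMP pathway lists; red and blue points passed an adjusted p of 0.05 as higher and lower, grey points did not, and black bars are list medians. List medians lie between -0.27 and 0.23 except for the receptors (-0.53) and the 4 measured guanylyl cyclases (-1.03).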

How the data were processed

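The authors deposited 1 table with whole-number values for 15811 genes in 8 libraries and, per the file headers, their own comparison: log2 fold change, average log2 CPM, p-value with FDR, and the score of a likelihood ratio test. Per the submitters' processing notes, STAR, RSEM and edgeR were used with GRCh38.p10; versions and order are not given in the sources used here. The deposited values per library are a normalised signal: TMM effective library sizes, computed here, were 38891544 to 38902543, which raw counts would not show, so sequencing depth is unknown and count models were not run. Following the plan for normalised values, limma 3.58.1 (R 4.3.3) with an intensity trend was fitted to log2(value + 1) with genotype as the only term. A count test was planned only for raw counts. The p-values were adjusted over all genes. The log2(value + 1) scale understates changes of low genes. Genes under about 1 CPM in 2 libraries had been left out of the table. GENCODE 29 matched 15777 genes; upstream windows are from RefSeq. The fit was tested on simulated data. Members and lists were chosen with earlier results of these data known. Genes named were ADCY1 to ADCY10, in each list up to 4 genes that passed, by lowest adjusted p, GNAS, GNAI2, PRKACA, PRKAR1A, CREB1, PDE4D, PDE10A, RAPGEF4, neighbours of ADCY2 and its 5 nearest profiles. Alternatives were other pseudocounts, filters, scalings and tests, a replicate block, library sets and each library left out. Replicate numbers were not treated as pairs. Python 3.11.15, numpy 2.4.6, pandas 2.3.3 and matplotlib 3.10.9 were used.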

Additional observations from a re-analysis of the deposited data

Results flagged for a closer look

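ADCY8 had 57 normalised read counts in WT replicate 3, against 41, 43 and 41 in the other WT libraries. The gap to its nearest neighbour was 0.875 of the range of the group, above the 95% critical value of Dixon's test for 4 samples. Of 16 groups of 4 libraries tested for the 8 cyclase genes, this was 1; chance alone marks about 1 in 20. Without that library the log2 difference of ADCY8 was -1.23 (adjusted p 0.0406, limma), within a range of -1.54 to -1.09 over the alternatives. Because ADCY8 could enter the table only through the WT libraries, that p is no support for a fall.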

How the results depend on the processing

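ADCY2 kept a log2 difference between -3.19 and -3.11 under all 20 alternatives. Of 137 alternative values for the other 7 cyclase genes, 129 kept their direction and their side of the threshold, 7 lost the call and 1 gained it. The 5 calls among the other 7 cyclase genes became 3 of 4 genes left by a filter that asks for 5 CPM in 4 libraries, and 0 within the high set, where 1 WT library is assumed to vary like the others and 4 genes had an unadjusted p below 0.05 (limma). The 40 pathway calls became 21 of 60 genes with that filter and 0 of 95 within the high set (39 at an unadjusted p below 0.05). Over all genes the 5063 calls became 8195 with a term for the library set and 122 within the high set. Leaving out each library in turn gave 3721 to 6041 calls over all genes, 4 to 5 of the cyclase genes and 30 to 49 of the pathway genes, and medians of 0.07 to 0.16 for the genes beside ADCY2. With the length of the longest transcript in place of merged exons, ADCY2 made up 5.58% of the summed level in EXT1-/- cells and 31.8% in WT cells. By that length ADCY2 stood first in WT cells and at rank 4 in EXT1-/- cells. ADCY5 moved to rank 6 in EXT1-/- cells, and in WT cells ADCY6 (rank 4) stood above ADCY5 (rank 5). Differences near 0 changed sign: PRKACA to -0.055 once the library set was fitted, to -0.011 in the low set, to -0.14 in the high set and, over left-out libraries, between -0.0085 and 0.25; GNAS to -0.034 in the high set; and CREB1, over left-out libraries, between -0.00018 and 0.058. The causes were not tested. Same-numbered libraries did not deviate together in every pair (correlations of 0.67, 0.16, 0.24 and -0.52). EXT1-/- replicates 1 and 4 correlated with WT replicate 1, also of the high set, at 0.67 and 0.60. Because the correlations follow the sets, they cannot tell whether same-numbered libraries were paired. A replicate block gave 4934 calls over all genes, 5 among the cyclase genes and 39 in the pathway. Counts near 1 CPM, as for ADCY8, limit precision most.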

Other observations

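Guanylyl cyclases, which make cyclic GMP with a catalytic domain related to that of the adenylyl cyclases, were in the table for 4 of 8 listed genes. NPR1, the receptor for atrial natriuretic peptide, had 30, 22, 13 and 14 normalised read counts in EXT1-/- replicates 1 to 4, against 115, 134, 115 and 127 in WT replicates 1 to 4, a log2 difference of -2.65 ± 0.26 (SE; adjusted p 9.12e-05, limma). GUCY2C, the guanylin receptor, averaged 22.2 ± 4.72 in EXT1-/- cells and 96.5 ± 11.9 in WT cells (SD, n = 4 each; adjusted p 5.20e-05, limma). Both had means below 1 CPM in EXT1-/- cells and could pass the table's filter through the WT libraries only. NPR2, the receptor for C-type natriuretic peptide, averaged 484.5 counts in EXT1-/- cells and 480.0 in WT cells (adjusted p 0.883, limma), and GUCY1B3, a subunit of the soluble enzyme, had a log2 difference of 0.71 (adjusted p 0.0687, limma). Of the 2 exporters of cAMP listed, ABCC5 was higher by 0.35 on the log2 scale (adjusted p 0.000946, limma) and ABCC4 had 0.11 (adjusted p 0.289, limma).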
